A study of Mus musculus with 20 samples.

Results

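Mouse blastocysts that had been exposed to acid alone at the 8-cell stage were compared with blastocysts that had been exposed to calcium- and magnesium-free medium alone. The comparison used 8 of the 20 arrays of the series, chosen by their labels: 4 pools titled as acid and 4 pools titled as calcium-magnesium-free medium without acid, each numbered as replicates 2 to 5. All embryos were of the CF1 strain, and each pool held 20 embryos. In the acid group, acid was the only exposure of the embryo biopsy procedure that the labels give. The full procedure used acid Tyrode's solution of pH 1.6. In the other group, called CMF here, the only exposure was the medium without calcium and magnesium, in which embryos were held for 5 min in the full procedure. The labels do not say how long the embryos of either group were exposed. The untreated group, used here as a point of orientation, had neither exposure and also comprised 4 pools. All groups were then cultured singly in 10 µl drops of a potassium simplex optimization medium with amino acids and were collected 96 h after hCG injection, the hormone injection that times ovulation. The groups with both exposures and with blastomere removal were not compared here. Like the untreated group, they entered through the shared estimate of the spread, the detection filter and the choice of each gene's probe set. The series asked how the steps of embryo biopsy affect transcripts at the blastocyst stage, and the acid against CMF comparison sets the step that opens the zona against the step that loosens the cells, with no untreated embryo in the contrast.

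The zona pellucida is the glycoprotein coat around the embryo, and acid Tyrode's solution dissolves it locally. At the 8-cell stage the blastomeres compact by means of E-cadherin, whose binding needs calcium, so that medium without divalent ions loosens the contacts until calcium is given back. Polarity and contact then feed into the Hippo pathway, in which unphosphorylated Yap1 enters the nucleus of outer cells and, with Tead factors, turns on trophectoderm genes, while inner cells form the inner cell mass. Fgf4 from the inner cell mass acts on Fgf receptors and the MAP kinase cascade in the choice between epiblast and primitive endoderm.

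Technical measures of the acid and CMF arrays overlapped between the groups. The median log2 intensity of the tested probe sets was 7.83 ± 0.0321 in acid and 7.84 ± 0.0426 in CMF (SD, n = 4 each, exact permutation p = 0.8). The share of probe sets called Present was 49.2% ± 0.675 in acid arrays and 49.2% ± 1.22 in CMF arrays (SD, n = 4 each, exact permutation p = 0.914). The 3 prime to 5 prime signal ratio of Gapdh was 3.81 ± 0.415 in acid and 3.74 ± 0.370 in CMF (SD, n = 4 each, exact permutation p = 0.8), and that of actin was 2.20 ± 0.656 in acid and 1.96 ± 0.180 in CMF (SD, n = 4 each, exact permutation p = 0.6). These two-sided tests ran over 70 assignments, cannot give a p below 0.0286, and adjusted over the 4 array measures gave 0.914 each. Replicate 5 of the embryos with both exposures stood apart. It had 44.3% of probe sets called Present, a median log2 intensity of 7.55 and an actin ratio of 4.22. Its mean correlation with the other arrays was 0.9845, against 0.9942 for the next lowest array. That array touches the results here through the shared spread, the detection filter and the choice of each gene's probe set. The number of arrays limits the precision of every value below. Nothing in the labels says whether the pools came from separate collection days, so p-values measure the spread between these pools, which may in part be technical.

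Markers of the blastocyst, the labelled stage, were high on all 8 arrays. Pou5f1, the pluripotency factor Oct4, stood at log2 intensities of 14.55, 14.58, 14.35 and 14.57 on acid arrays 2 to 5, against 14.46, 14.62, 14.47 and 14.51 on CMF arrays 2 to 5. Krt8, a trophectoderm keratin, ranged from 15.20 to 15.32 in acid and from 15.11 to 15.35 in CMF. The groups overlapped for both genes. Markers of cells that could cling to an embryo were detected in part. Of 15 cumulus and granulosa cell genes with a probe set, 6 passed the detection filter, and 4 of these were called Present on all 8 arrays. Amhr2, the receptor of anti-Müllerian hormone, was among the 4, at 9.17 to 9.88 in acid and 9.32 to 9.63 in CMF, as were Gja1 and Nr5a2, which the embryo itself also expresses. Foxl2, a granulosa cell factor, lay near the bottom of the scale, between 2.37 and 2.40 in acid and between 2.37 and 2.39 in CMF. Of 13 blood cell, uterine and oviduct epithelium genes with a probe set, 7 passed, and 3 were called Present on all 8 arrays. Lyz2, the lysozyme of phagocytes, lay between 2.81 and 2.86 in acid and between 2.83 and 2.84 in CMF. Ovgp1, a glycoprotein secreted by oviduct epithelium, was Present throughout, at 6.75, 6.11, 5.97 and 7.06 in acid and 6.07, 5.71, 6.02 and 6.05 in CMF, a difference of 0.51 ± 0.25 (log2, SE) that did not pass limma's test. The part of such cells in the results was not tested. The labels give the sex as female for every pool but CMF replicate 2, for which none is given. Eif2s3y, a gene of the Y chromosome, was called Present on all 8 arrays, at 10.40, 11.24, 11.44 and 11.28 in acid and 10.48, 10.99, 11.18 and 11.33 in CMF. A transcript of the Y chromosome was thus detected in pools labelled female.

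No probe set passed the test between acid and CMF. Of 25553 probe sets tested, limma called 0 (0.0%) at a Benjamini-Hochberg adjusted p under 0.05, and the lowest adjusted p was 0.999949. An unadjusted p under 0.05 was reached by 424 probe sets (1.66%), 207 (0.81%) higher and 217 (0.849%) lower in acid, where a uniform distribution of p-values would give about 1278. Ordinary least squares without moderation also called 0, with 389 at an unadjusted p under 0.05. With the signal of the array software in place of the deposited series values, 395 were higher and 205 lower in acid at that level, and 0 were called. The 348 probe sets whose acid arrays all lay above or all below the CMF arrays made up 1.36% of those tested.

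The differences were small against the scatter between pools. The median size of the difference was 0.06 on the log2 scale, whereas the median SD within a group was 0.13 in acid and 0.14 in CMF, and the median standard error of the difference was 0.14. The 95% confidence interval of the difference lay inside a 2-fold change either way for 24684 probe sets, 96.6% of those tested, and inside a 1.5-fold change for 19980, or 78.2%. It lay inside a 1.25-fold change for 10317, or 40.4%. For most probe sets a difference of that size was thus within the error of this fit, which does not pair pools by replicate number. With the number as a block, the median standard error was 0.0724 on the 8 arrays alone. It was 0.0970 with the block on 19 arrays, without replicate 5 of the embryos with both exposures. The interval counts hold for the fit without the block. All values here are statements on pool averages: in pooled embryos, fewer cells of a type and less RNA per cell cannot be told apart.

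**Figure D1:**
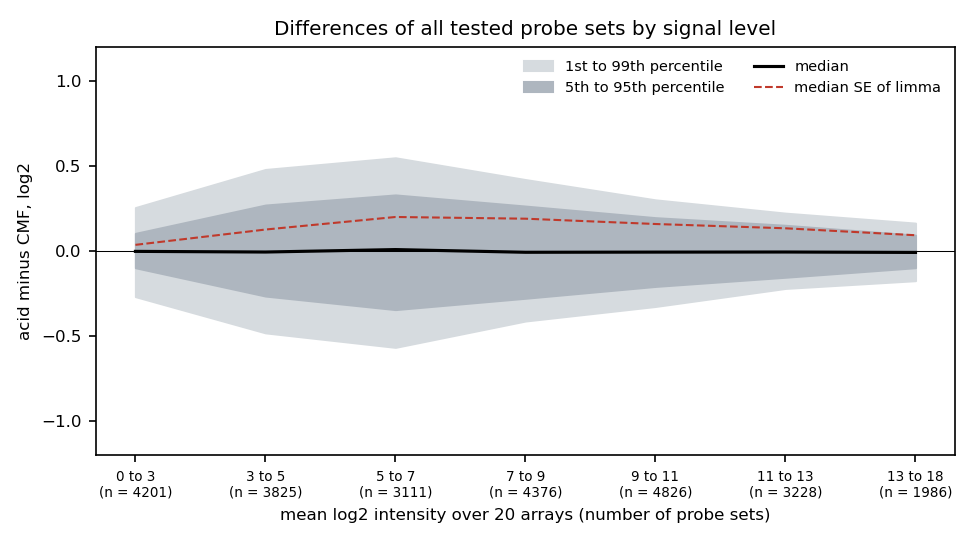
The acid minus CMF difference (log2) of the 25553 tested probe sets is shown by mean log2 intensity over 20 arrays, as the median (line), the 5th to 95th percentile (dark band) and the 1st to 99th percentile (light band), with limma's median standard error (dashed). The median stays within 0.01 of zero at every level, and the bands are widest between log2 intensities of 5 and 7, where the standard error is also highest.

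Spread depended on signal level. Between log2 intensities of 5 and 7, the 3111 probe sets had a 5th to 95th percentile of -0.34 to 0.33 and a median standard error of 0.20. Above 13, where the most abundant blastocyst transcripts lie, the 1986 probe sets spanned -0.10 to 0.09 between the same percentiles, with a median standard error of 0.09. Krt8 and Pou5f1 lie in this upper range.

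Pools with the same replicate number resembled each other across the groups. After each group's mean was taken away, the acid and CMF arrays of number 2 correlated at r = 0.16 across probe sets, those of number 3 at 0.32, number 4 at 0.29 and number 5 at 0.25, all positive. Acid and CMF arrays of different numbers ran from -0.31 to 0.08. These correlations are across probe sets, which are not independent replicates. With the replicate number as a block in limma, all 20 arrays called 0 probe sets, with 623 (2.44%) at an unadjusted p under 0.05. The same block on the 8 arrays alone also called 0, with a lowest adjusted p of 0.773. In that fit 1563 lay at an unadjusted p under 0.05, where a uniform distribution of p-values would give about 1278.

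**Figure D2:**
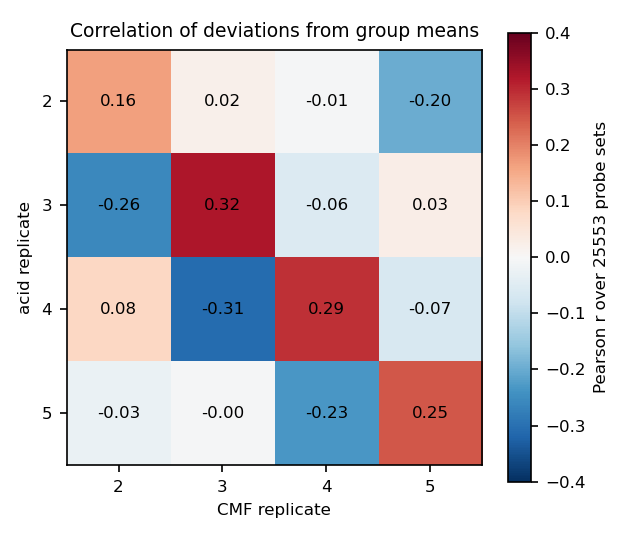
Pearson correlation, across 25553 probe sets, of each acid array's deviation from the acid mean (down the page) with each CMF array's deviation from the CMF mean (across), by replicate number. The 4 same-number pairs on the diagonal, from 0.16 to 0.32, are the highest of all 16 pairs.

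The genes with the lowest unadjusted p among those higher in acid in all 4 same-number pairs did not pass the test. Rmi1, a partner of the BLM helicase in the dissolution of recombination intermediates, had log2 intensities of 7.56, 7.56, 7.27 and 7.36 in acid replicates 2 to 5, against 7.15, 6.84, 7.02 and 7.24 in CMF replicates 2 to 5. Every acid pool lay above every CMF pool, by 0.38 ± 0.09 on average (log2, SE, as for all differences here). The 4 other probe sets of Rmi1 had the opposite sign. Tm9sf4, a membrane protein of the endosomal system, had 9.49, 9.68, 9.60 and 9.52 in acid and 9.24, 9.25, 9.38 and 9.36 in CMF, again without overlap, a difference of 0.27 ± 0.07. Its other probe set pointed the other way.

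Agreement among probe sets was better for Mlec and Hells. Mlec, a lectin of the endoplasmic reticulum that binds glycans on new glycoproteins, had 9.75, 9.52, 9.55 and 9.66 in acid and 9.13, 9.44, 9.27 and 8.94 in CMF, a difference of 0.43 ± 0.13. Hells, a chromatin remodeller needed for DNA methylation, had 10.00, 9.74, 9.89 and 10.00 in acid and 9.60, 9.65, 9.54 and 9.82 in CMF, a difference of 0.26 ± 0.08. The acid pools of Mlec did not overlap the CMF pools, those of Hells did, and for each gene both other probe sets had the same sign. Otud7b, a deubiquitinase, had the largest of these differences at 0.81 ± 0.20, or 1.75-fold, with overlapping groups: 7.54, 6.96, 6.78 and 7.05 in acid against 6.11, 6.82, 6.38 and 5.79 in CMF. Of its 3 other probe sets, 2 had the same sign.

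The remaining genes of this kind included several at low signal. Dgcr8, the RNA-binding partner of Drosha in microRNA processing, differed by 0.59 ± 0.13 at intensities of only 2.64 to 3.39 in acid and 2.15 to 2.36 in CMF, and was called Present on 4 acid and 2 CMF arrays. Both of its other probe sets had the opposite sign. Gramd1b, a cholesterol transporter of membrane contact sites, differed by 0.24 ± 0.07, and Adap1, an Arf GTPase-activating protein, by 0.30 ± 0.09, both at log2 intensities below 5. Adap1 turned to -0.034 with the software signal, and in replicate 4 its acid and CMF pools were nearly equal. Gpr85, an orphan G-protein-coupled receptor, differed by 0.48 ± 0.13, Rsf1, a subunit of a chromatin remodelling complex, by 0.49 ± 0.16, and Peak1, a cytoskeletal pseudokinase, by 0.22 ± 0.06. Of the other probe sets, 1 of 1 for Gpr85, 2 of 3 for Rsf1 and 1 of 3 for Peak1 had the same sign. Cdc73, a subunit of the Paf1 elongation complex, was among the lowest p-values once replicate number was a block, with a difference of 0.40 ± 0.09 in that fit. Il17rd, which is also a member of the Fgf list, is described with that pathway.

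Among genes lower in acid in all 4 pairs, likewise none passed the test. Ggps1, which makes geranylgeranyl diphosphate for protein prenylation, had 9.98, 10.14, 9.83 and 9.81 in acid, against 10.28, 10.34, 10.31 and 10.43 in CMF. The groups did not overlap and differed by -0.40 ± 0.09, with 2 of 3 other probe sets of the same sign. Osgepl1, a mitochondrial enzyme of tRNA modification, had 7.15, 7.99, 7.38 and 7.87 in acid and 8.00, 8.24, 8.04 and 8.31 in CMF, a difference of -0.55 ± 0.16. Dctn4, a subunit of dynactin, the activator of the dynein motor, lay between 8.99 and 9.06 in acid and between 9.15 and 9.25 in CMF, a difference of -0.18 ± 0.05. Neither gene's groups overlapped, and all other probe sets of the pair had the same sign, 2 for Osgepl1 and 4 for Dctn4.

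Mecr, an enzyme of mitochondrial fatty acid synthesis, differed by -0.30 ± 0.09, Tpp2, a large cytosolic peptidase, by -0.28 ± 0.09 and Cnot4, a ubiquitin ligase, by -0.39 ± 0.12. Of the other probe sets, 1 of 2 for Mecr, 3 of 4 for Tpp2 and 2 of 4 for Cnot4 had the same sign. Lasp1, an actin-binding protein of adhesions, differed by -0.35 ± 0.12, but 0 of its 8 other probe sets had the same sign. Pacc1, a chloride channel that opens in acid, had 3.69, 3.74, 3.77 and 3.70 in acid-exposed pools and 4.07, 4.11, 4.18 and 4.67 in CMF pools. That gap of -0.53 ± 0.14 lay at low signal, and 1 of 3 other probe sets shared its sign. Armt1, a protein carboxyl methyltransferase, differed by -0.36 ± 0.10, Serping1, the C1 inhibitor of complement, by -0.25 ± 0.07 near the bottom of the scale, and the unnamed transcripts 4930483J18Rik and 2810021J22Rik by -0.35 ± 0.11 and -0.36 ± 0.11. The other probe set of Armt1 had the opposite sign. With the replicate block, Ccdc66, a protein of cilia and microtubules, at -0.34 ± 0.07, the zinc finger gene Zfp995 at -0.37 ± 0.09 and Tfdp2, a dimerization partner of E2F factors, at -0.23 ± 0.06 joined the lowest p-values, with the standard errors of that fit. The other probe set of Ccdc66 and that of Zfp995 had the same sign, and 0 of 2 others of Tfdp2 did.

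Across the 24 genes with the lowest p without the block, 12 in each direction, the size of the differences ran from 1.14-fold, for Dctn4, lower in acid, to 1.75-fold, for Otud7b, higher in acid. The acid and CMF pools did not overlap for 17 of them, which the choice by low p favours. A test of probe sets that the choice did not use was available for 20 genes: of their 54 other tested probe sets, 26 had the same sign as the chosen one, for 6 genes all of them and for another 6 none.

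Few differences were large. More than 2-fold separated the group means for 8 probe sets, 2 higher and 6 lower in acid, of which 0 and 4 were called Present on all 8 arrays. The probe sets with a single gene symbol, named after their values were seen, were AF067061, higher in acid, and 4930447C04Rik at -1.37 ± 0.61, Diras2 at -1.19 ± 0.33, Mbl2 at -1.06 ± 0.53 and Slu7 at -1.06 ± 0.42. AF067061 was called Present on 2 acid and 0 CMF arrays, so no fold is given for it. It stood at 5.71 and 6.70 in acid replicates 4 and 5, against 3.39 and 3.16 in acid replicates 2 and 3 and 2.75 to 3.95 in CMF. Diras2, a small GTPase, had 2.40, 3.17, 3.08 and 2.75 in acid and 3.88, 4.94, 2.80 and 4.54 in CMF, so that CMF replicate 4 lay inside the acid range. Mbl2 had 2.51, 3.10, 4.36 and 5.31 in acid and 4.74, 4.33, 4.36 and 6.10 in CMF, nearly equal in replicate 4. For 4930447C04Rik the values were 4.97, 3.93, 2.81 and 5.42 in acid and 6.75, 4.79, 5.00 and 6.09 in CMF. The groups overlapped for both Mbl2 and 4930447C04Rik. Slu7, a splicing factor, had 4.29, 5.28, 4.85 and 4.92 in acid and 5.79, 5.49, 5.68 and 6.61 in CMF without overlap, with 4 of 5 other probe sets of the same sign. No fold in this group of genes passed the adjusted test.

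Lists of genes of the 3 blastocyst lineages had small median differences between acid and CMF. Of 12025 genes, each represented by its probe set with the highest mean, 5297 were higher and 6728 lower in acid, with a median difference of -0.01. In the 32 lists, 0 members were called, as were 0.0% of all probe sets tested. Of 23 inner cell mass and epiblast genes, 14 were higher and 9 lower, with a median of 0.01 that changed sign in 3 of 26 alternative settings, which are 25 other fits and an average over each gene's probe sets. Of 24 trophectoderm genes, 12 were higher and 12 lower, with a median of 0.00. Of 21 primitive endoderm genes, 12 were higher and 9 lower, with a median of 0.03 that changed sign in 3 settings, and medians of 0.31, 0.03, -0.14 and 0.00 in replicates 2 to 5.

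Nanog, a core epiblast factor, had 13.31, 13.10, 12.97 and 13.35 in acid and 13.43, 13.39, 13.35 and 13.53 in CMF. Dppa5a, an RNA-binding protein of pluripotent cells, had 15.74, 15.70, 15.78 and 15.75 in acid and 15.89, 15.79, 15.83 and 15.81 in CMF. Both were lower in every acid pool than in any CMF pool, as were 0.89% of all genes, though the closest Nanog pools were equal to 2 decimals. Nanog differed by -0.24 ± 0.16 and Dppa5a by -0.09 ± 0.04. Among all genes tested, 1.45% had groups without overlap in either direction. Cdx2, the factor that sets the trophectoderm, differed by -0.06 ± 0.12, a sign that turned without acid replicate 2, with 12.37, 12.57, 12.96 and 12.42 in acid and 12.78, 12.42, 12.76 and 12.62 in CMF. Ppp2r3a, a regulatory subunit of protein phosphatase 2A, differed by -0.31 ± 0.11, while neither of its other probe sets had the same sign. Gata6, the early primitive endoderm factor, ranged from 13.22 to 13.47 in acid and from 13.21 to 13.49 in CMF. Pdgfra, its later receptor marker, had 11.06, 9.92, 10.54 and 9.81 in acid and 10.43, 10.07, 10.20 and 9.98 in CMF, a difference of 0.17 ± 0.29 that was -0.077 without acid replicate 2.

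Genes of cell contacts, among which cadherin binding needs the calcium that CMF medium lacks, had small median differences. Of 22 adherens junction and desmosome genes, 16 were higher and 6 lower in acid, with a median of 0.05, and of 19 tight junction genes, 11 were higher and 8 lower, with a median of 0.03. Both medians were positive within each of the 4 replicate numbers and under all 26 alternative settings. Cdh1, E-cadherin itself, had 14.34, 14.51, 14.49 and 14.34 in acid and 14.28, 14.24, 14.37 and 14.29 in CMF, higher in acid in all 4 pairs but overlapping between groups. Its difference was 0.12 ± 0.11, with an interval from -0.11 to 0.36. Ctnnb1, the beta-catenin that links cadherin to actin, had 14.73, 14.35, 14.51 and 14.38 in acid and 14.53, 14.51, 14.57 and 14.50 in CMF, a difference of -0.03 ± 0.20 whose sign turned without acid replicate 3 or 5. Nectin1, a calcium-independent adhesion molecule, differed by 0.18 ± 0.14 in the direction of Cdh1.

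Among tight junction genes, the scaffold Tjp1 lay between 13.47 and 13.66 in acid and between 13.48 and 13.59 in CMF. Cldn6, a claudin of early epithelia, had 10.46, 10.92, 10.33 and 10.26 in acid and 10.08, 10.21, 10.53 and 9.65 in CMF. It was higher in 3 of 4 pairs, by 0.37 ± 0.20, with an unadjusted limma p of 0.0734 that was 0.015 with the replicate block. Cgn, a cytoplasmic junction protein, differed by 0.17 ± 0.15. Marveld2, which seals contacts of 3 cells, ran the other way without overlap, at 10.18, 10.11, 10.33 and 10.31 in acid and 10.59, 10.34, 10.37 and 10.42 in CMF, a difference of -0.19 ± 0.14. The junction genes thus had members on both sides, and none passed the test.

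In the polarity and Hippo list, 21 of 27 genes were higher in acid and 6 lower, with a median of 0.07. Where all probe sets of a gene were averaged, the split was 14 higher and 13 lower, with a median of 0.03, and over all 26 settings the median ran from 0.02 to 0.09. An unadjusted p under 0.05 was reached by 2 members, against 1.34% of all genes. Stk4, the Mst1 kinase at the head of the Hippo cascade, had 12.96, 12.97, 13.08 and 12.94 in acid and 12.76, 12.84, 12.96 and 12.84 in CMF, a difference of 0.14 ± 0.05. Of its 2 other probe sets, 1 had the same sign. Pard3, a scaffold of the apical polarity complex, had 10.74, 10.57, 10.56 and 10.58 in acid and 10.61, 10.34, 10.41 and 10.30 in CMF, a difference of 0.20 ± 0.09, and all 3 of its other probe sets had the same sign. Both were higher in acid in every pair, as were 5.21% of all genes, and for both the acid and CMF pools overlapped.

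Tead1, a DNA-binding partner of Yap1, was the single member whose acid pools all lay above the CMF pools, against 0.557% of all genes, and is named for that. It had 10.76, 10.68, 10.70 and 10.65 in acid and 10.55, 10.42, 10.35 and 10.58 in CMF, a difference of 0.22 ± 0.23. Its standard error exceeded the scatter of the 8 pools, with SDs of 0.05 in acid and 0.11 in CMF. The standard error in limma draws on the spread of all 5 groups, and which group or array widened it was not tested. Yap1 differed by 0.09 ± 0.08 and Amot, the angiomotin that holds Yap1 at junctions, by 0.11 ± 0.09. The other tested probe sets of these 2 genes, 1 for Yap1 and 2 for Amot, had the opposite sign.

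The Fgf and MAP kinase list had the highest median, 0.07, with 18 of 22 genes higher in acid and 4 lower. The median kept its sign in all 26 settings but was 0.02 where a gene's probe sets were averaged. Fgf4, the ligand of the inner cell mass, had 8.60, 8.75, 8.64 and 8.14 in acid and 8.61, 8.49, 8.09 and 8.07 in CMF, a difference of 0.22 ± 0.52. Of its receptors, Fgfr1 had 11.21, 11.34, 11.26 and 11.37 in acid and 11.02, 11.07, 11.01 and 11.10 in CMF, without overlap and with both other probe sets of the same sign, a difference of 0.25 ± 0.17. The standard errors of Fgf4 and Fgfr1 exceeded the SDs of their pools. These were 0.27 in acid and 0.28 in CMF for Fgf4, and 0.07 in acid and 0.04 in CMF for Fgfr1. Fgfr2, the trophectoderm receptor, lay between 10.32 and 10.51 in acid and between 10.31 and 10.57 in CMF, so that its groups overlapped.

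Fgfr1 and 2 members that act below the receptors, Il17rd and Mapk14, had acid pools all above the CMF pools, which held for 0.557% of all genes. Il17rd, a feedback inhibitor of Fgf signalling also called Sef, had 7.51, 7.61, 7.55 and 7.27 in acid and 7.24 on each of the 4 CMF arrays, a difference of 0.25 ± 0.06, while its other probe set had the opposite sign. It was called Present on 3 acid, 3 CMF and 1 untreated array, and its CMF values had an SD of only 0.003. Mapk14, the p38 alpha kinase, had 12.88, 12.63, 12.69 and 12.65 in acid and 12.53, 12.59, 12.61 and 12.46 in CMF, a difference of 0.16 ± 0.08. Of its 2 other probe sets, 1 had the same sign. Sos1, the exchange factor that activates Ras, differed by 0.31 ± 0.17, with 1 of 4 other probe sets of the same sign. Etv5, a transcription factor induced by Fgf signalling, had 10.04, 10.01, 9.69 and 9.51 in acid and 9.53, 9.64, 9.56 and 9.28 in CMF, a difference of 0.31 ± 0.28. Fgfr1 and Etv5 lie outside the rule for named genes and were picked after their values were seen. With the replicate block, Il17rd, Mapk14 and Sos1 reached an unadjusted p under 0.05, as did 2.44% of all probe sets, and 0 members passed the adjusted test.

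**Figure D3:**
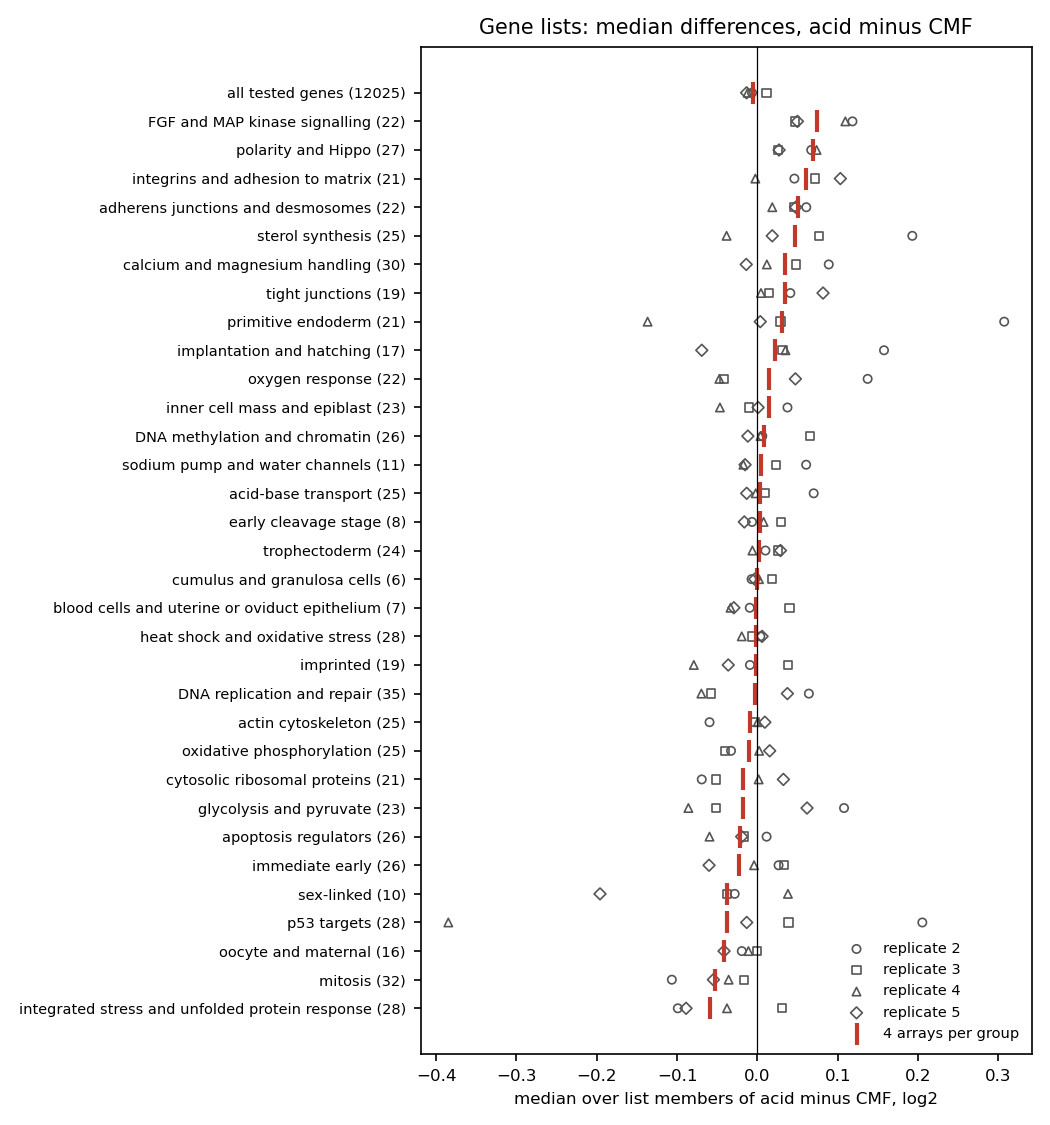
Median acid minus CMF difference (log2) over the tested members of each of 32 gene lists, ordered by median, with the number of members in parentheses; the red bar is from 4 arrays per group and the symbols are the medians within each replicate number. All red bars lie between -0.06 and 0.07, and only 6 lists have 4 pair medians of the same sign. The symbols run more widely, from -0.38 for p53 targets in replicate 4 to 0.31 for primitive endoderm in replicate 2.

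Adhesion to matrix and the actin skeleton gave values on both sides. Of 21 integrin and matrix adhesion genes, 15 were higher and 6 lower in acid, with a median of 0.06 that was negative in 1 of 26 settings. Zyx, a focal adhesion protein, had 10.70, 10.76, 10.56 and 10.31 in acid and 10.27, 10.60, 10.35 and 9.67 in CMF, higher in all 4 pairs by 0.36 ± 0.19. Of 25 actin cytoskeleton genes, 11 were higher and 14 lower, with a median of -0.01 whose sign turned in 6 settings. Rdx, radixin of the microvilli, was higher in acid in all 4 pairs by 0.19 ± 0.08, with both other probe sets of the same sign. Srf, the factor that drives actin genes when the actin pool changes, had 10.40, 10.38, 10.67 and 10.07 in acid and 9.56, 10.36, 10.05 and 9.48 in CMF. The difference of 0.52 ± 0.20 was the lowest unadjusted p, 0.0205, of the 26 immediate early genes, of which 9 were higher and 17 lower. Hbegf, an epidermal growth factor ligand of implantation, differed by 0.39 ± 0.18 at log2 intensities below 5.

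Ion transport, the part of cell physiology that the exposures touch most directly, showed small list medians. Of 30 calcium and magnesium handling genes, 18 were higher and 12 lower in acid, with a median of 0.03. Where all probe sets of a gene were averaged, and likewise without CMF replicate 5, the split was 15 higher and 15 lower, with medians of 0.0030 and 0.0070. Atp2a2, the calcium pump of the endoplasmic reticulum, had 14.58, 14.70, 14.67 and 14.79 in acid and 14.59, 14.73, 14.77 and 14.80 in CMF, a difference of -0.03 ± 0.08. Atp2b1, the calcium pump of the plasma membrane, differed by 0.12 ± 0.16, and Cnnm3, a membrane protein of magnesium handling, by 0.18 ± 0.13. Of the other probe sets, 0 of 4 for Atp2a2, 2 of 2 for Atp2b1 and 0 of 2 for Cnnm3 had the same sign. The 95% interval for Atp2a2 ran from -0.19 to 0.13.

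Of 25 acid-base transport genes, 13 were higher and 12 lower in acid, with a median of 0.00. Slc4a2, the anion exchanger that removes bicarbonate after an alkaline load, had 9.69, 9.72, 9.56 and 9.50 in acid and 9.62, 9.68, 9.53 and 9.04 in CMF, a difference of 0.15 ± 0.14. Slc9a8, a sodium-proton exchanger, differed by -0.19 ± 0.14, and Atp6v1e1, a subunit of the vacuolar proton pump, by -0.12 ± 0.07. Of the other probe sets, 1 of 2 for Slc9a8 and 2 of 3 for Atp6v1e1 had the same sign. Slc4a11, a membrane transporter of the bicarbonate transporter family, had 10.93, 11.44, 10.90 and 11.01 in acid and 10.65, 11.25, 10.75 and 10.47 in CMF, higher in all 4 pairs. Its difference was 0.29 ± 0.17, with an unadjusted limma p of 0.108 that was 0.0175 with the replicate block, and its other probe set had the opposite sign. Of 11 sodium pump and water channel genes, which fill the blastocyst cavity, 6 were higher and 5 lower. Atp1b1, the pump's beta subunit, ranged from 13.72 to 14.21 in acid and from 13.88 to 14.07 in CMF.

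The p53 target genes ran in opposite directions in different replicate numbers. Of 28 p53 target genes, 12 were higher and 16 lower in acid, and their medians were 0.21, 0.04, -0.38 and -0.01 in replicates 2 to 5, with the overall median of -0.04 changing sign in 5 of 26 settings. Cdkn1a, the p21 inhibitor of the cell cycle, had 11.47, 10.76, 10.80 and 10.72 in acid and 10.65, 10.70, 11.62 and 10.54 in CMF, so that acid replicate 2 and CMF replicate 4 were each far above their groups. Mdm2, the ubiquitin ligase of p53, was also highest there, at 10.45 in acid replicate 2 and 10.32 in CMF replicate 4, with 9.78 to 9.89 in the other acid pools and 9.87 to 9.98 in the other CMF pools. The group differences were 0.06 ± 0.27 for Cdkn1a, which was -0.115 without acid replicate 2, and -0.04 ± 0.23 for Mdm2, which was 0.068 with the software signal. For each of these genes the other probe set had the opposite sign.

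Other stress genes had values on both sides, and none passed the test. Gadd45a, which responds to DNA damage, had 6.49, 6.67, 6.57 and 6.67 in acid and 6.65, 6.82, 7.14 and 7.02 in CMF, a difference of -0.31 ± 0.14. Ddit3, the CHOP factor of the unfolded protein response, had 8.22, 8.09, 7.82 and 7.65 in acid and 8.79, 8.11, 8.40 and 8.25 in CMF, a difference of -0.44 ± 0.22, while its other probe set had the opposite sign. Both were lower in acid in all 4 pairs, as were 8.07% of all genes. Of 28 genes of the integrated stress and unfolded protein responses, 10 were higher and 18 lower, with a median of -0.06 and medians of -0.10, 0.03, -0.04 and -0.09 in replicates 2 to 5. Ddit4, an inhibitor of mTOR, had 9.61, 9.93, 9.79 and 10.13 in acid and 10.92, 9.33, 10.37 and 10.88 in CMF, a difference of -0.51 ± 0.33, with replicate 3 against the other pairs.

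Heat shock and oxidative stress genes split evenly, 14 higher and 14 lower of 28. Hmox1, the inducible heme oxygenase, had 7.72, 10.14, 9.68 and 9.41 in acid and 9.02, 10.21, 10.07 and 10.41 in CMF, lower in all 4 pairs, by -0.69 ± 0.47. Hspa1a, the inducible Hsp70, had 6.07, 5.20, 4.28 and 4.60 in acid and 4.32, 4.23, 3.80 and 4.41 in CMF, higher in all 4 pairs. It was called Present on 2 acid and 0 CMF arrays, so no fold is given for it. Of 26 apoptosis regulators, 8 were higher and 18 lower, with a median of -0.02. No stress gene passed the adjusted test.

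**Figure D4:**
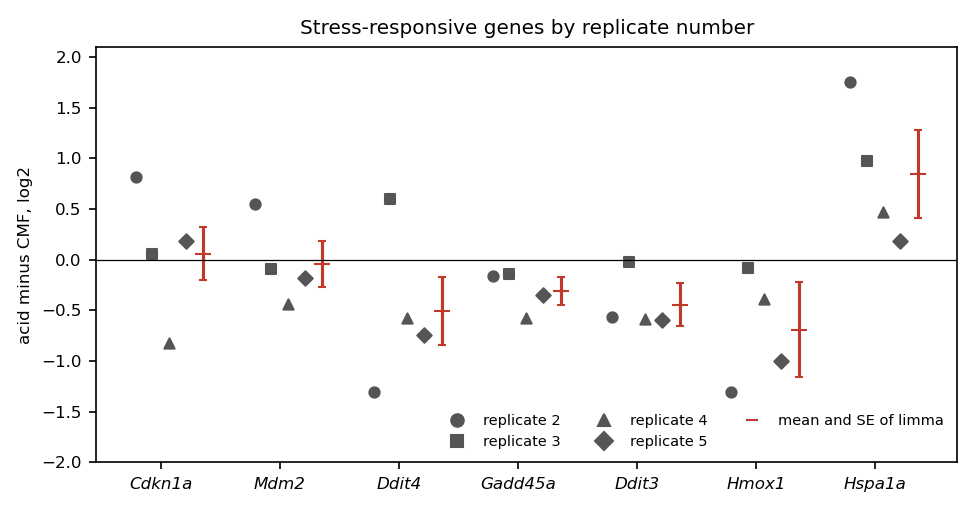
Acid minus CMF difference (log2) of 7 stress-responsive genes within each replicate number (symbols), with limma's estimate and standard error (red). Cdkn1a runs from 0.82 in replicate 2 to -0.82 in replicate 4, whereas Gadd45a, Ddit3 and Hmox1 lie below zero and Hspa1a, which was not called Present on any CMF array, above zero in all 4 pairs.

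Genes of cell division had a slightly lower median in acid. Of 32 mitosis genes, 9 were higher and 23 lower, with medians of -0.11, -0.02, -0.04 and -0.05 in replicates 2 to 5 and an overall median of -0.05 that kept its sign in all 26 settings. Cdk1, the mitotic kinase, had 12.88, 13.14, 12.81 and 13.12 in acid and 13.18, 13.17, 13.05 and 13.15 in CMF, a difference of -0.15 ± 0.15. Kif20a, a kinesin of cytokinesis, differed by -0.17 ± 0.12 and Mad2l1, a spindle checkpoint protein, by -0.15 ± 0.11. None of the 32 reached an unadjusted p under 0.05. DNA replication and repair genes were 15 higher and 20 lower of 35.

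Housekeeping pathways had small list medians. Of 21 cytosolic ribosomal protein genes, 5 were higher and 16 lower in acid, with a median of -0.02 and pair medians on both sides of zero. Rps19 of the small subunit differed by -0.07 ± 0.04. Of 25 oxidative phosphorylation genes, 10 were higher and 15 lower, and none was above or below in all 4 pairs, against 13.3% of all genes. Of 25 sterol synthesis genes, 17 were higher and 8 lower, with a median of 0.05 that turned negative in 2 settings, and Hmgcs1, which feeds the mevalonate pathway, differed by 0.20 ± 0.15 with all 4 other probe sets of the same sign. Of 23 glycolysis and pyruvate genes, 10 were higher and 13 lower. Slc2a1, the main glucose transporter, averaged 14.28 ± 0.06 in acid and 14.12 ± 0.17 in CMF (SD, n = 4 each), a difference of 0.16 ± 0.14.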

How the data were processed

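RNA of 20 blastocyst pools was amplified, labelled with biotin and hybridised to 1-colour Affymetrix MOE430 2.0 arrays. Per the series design text, the authors' deposited intensity values were quantified and normalized with GC-RMA, and the values are on a linear scale. Per the file headers, each array's own deposited table adds the array software's signal intensity and, from its detection test, a call and a p-value. From these, log2 intensities of 25553 of 45101 probe sets, Present on at least 3 of 20 arrays and without 64 control probe sets, were fitted in limma 3.58.1 (R 4.3.3, lmFit and eBayes) with 5 group means. Acid minus CMF was tested two-sided, with Benjamini-Hochberg adjustment and a threshold of 0.05. The platform annotation gave 21292 of them 1 symbol, 619 several and 3642 none, and only the first kind was named. A gene in a list was represented by its probe set with the highest mean over 20 arrays. The script was tested on simulated data.

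The members and the 32 lists, with 668 of 818 genes tested, were chosen with earlier results of these data known. The rule for named genes took, per direction, up to 12 genes with the lowest unadjusted p among those Present on at least 4 of the 8 arrays and on the same side in all 4 pairs, 6 more from the fit with replicate number as a block, and from each list its first 2 tested members and up to 3 with the lowest p. The text describes part of them. Replicate numbers, which come from the labels, were taken to pair the pools because the deviations of each same-number pair correlated above 0.1. The pairing was used for the values within replicate numbers and for the fits with the replicate block. The reported fit had no block, so its standard errors, intervals and p-values are unpaired. Alternatives were the block, other samples in the fit, the software signal, other filters and normalizations, other variance moderation, and leaving out each pool or pair. No sequence is given, since no gene was called.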

Additional observations from a re-analysis of the deposited data

Results flagged for a closer look

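In 12 of 190 groups of 4 values examined, a single pool lay far from the other 3 by Dixon's ratio at the 95% level, where chance gives about 10. They comprised 6 acid groups and 6 CMF groups. Acid replicate 2 held the highest value for Cdkn1a, at a log2 intensity of 11.47 against 10.72 to 10.80 in the other acid pools, for Mdm2, at 10.45 against 9.78 to 9.89, and for Pard3, at 10.74 against 10.56 to 10.58. CMF replicate 4 held the highest Cdkn1a, 11.62 against 10.54 to 10.70 in the other CMF pools. Pou5f1 was lowest in acid replicate 4, at 14.35 against 14.55 to 14.58. Rsf1 was lowest in acid replicate 3, at 8.05 against 8.61 to 8.65, and Dgcr8 highest in acid replicate 5, at 3.39 against 2.64 to 2.70. In CMF replicate 5, Peak1 was lowest at 9.13 against 9.26 to 9.27, and Hbegf at 3.20 against 3.68 to 3.71. In CMF replicate 3, Armt1 was highest at 5.62 against 5.33 to 5.34, and Ovgp1 was lowest at 5.71 against 6.02 to 6.07. The transcript 2810021J22Rik was highest in CMF replicate 2, at 10.25 against 9.86 to 9.88.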

How the results depend on the processing

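All 25 alternative fits called 0 probe sets. The number at an unadjusted p under 0.05, 424 as reported, was 1563 with the replicate block on the 8 arrays and 694 on the 8 arrays without it. It was 631 without the block on 19 arrays, with replicate 5 of the embryos with both exposures left out. With the replicate block it was 1061 on 19 arrays without the outlying array and 817 with the software signal, both chosen after seeing the data. Leaving out pools or pairs gave 322 to 545. The lowest adjusted p over the pool leave-outs was 0.0870, without acid replicate 2. The replicate block changed no call; sign flips of the 4 pairs for the array measures gave permutation p-values between 0.5 and 1. Of 79 genes followed, 73 kept their sign throughout. Adap1 was -0.034 and Mdm2 0.068 with the software signal, with or without the replicate block. Without single pools, Ctnnb1 ran from -0.115 to 0.014, Cdx2 from -0.187 to 0.0093, Pdgfra from -0.077 to 0.342, Cdkn1a from -0.115 to 0.308 and Mdm2 from -0.196 to 0.061. Without a pair, Ctnnb1 was 0.0085 (replicate 3), Cdx2 0.054 and Cdkn1a -0.190 (replicate 2), and Mdm2 0.092 (replicate 4) and 0.0068 (replicate 5). The cause of these turns was not tested. In the reported fit, differences under 1.25-fold were within the error for most probe sets. The median standard error was 0.139 in that fit and 0.115 without the outlying array. With the replicate block it was 0.0970 on those 19 arrays and 0.0724 on the 8 arrays alone.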

Other observations

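Of the lists not described above, none had a member that passed limma's adjusted test. Of 16 oocyte and maternal genes, 4 were higher and 12 lower in acid, with a median of -0.04. Of 8 early cleavage stage genes, 5 were higher and 3 lower. DNA methylation and chromatin genes were 16 higher and 10 lower of 26, imprinted genes 9 higher and 10 lower of 19, oxygen-responsive genes 13 higher and 9 lower of 22, and implantation and hatching genes 9 higher and 8 lower of 17. Xist, the RNA of the inactive X chromosome, had log2 intensities of 14.41, 13.27, 13.32 and 13.69 in acid and 14.44, 13.38, 13.67 and 13.89 in CMF, and Eif2s3y was lowest in replicate 2 of each group.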
